A study of Mus musculus with 6 samples.

Results

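RNA polymerase III is the nuclear enzyme that makes tRNAs, 5S rRNA and other short non-coding RNAs, which are needed for protein synthesis and therefore for growth. It is built from subunits of its own and from subunits that it shares with RNA polymerases I and II, and it is held back by Maf1, a repressor that binds the enzyme when nutrients are short or cells are stressed. Myc, the transcription factor overexpressed in the mice studied here, is known to activate transcription by RNA polymerase III. The genes described are 9, taken by name from a list: the 8 subunit genes Polr3a, Polr3b, Polr3c, Polr3d, Polr3e, Polr3f, Polr3g and Polr3k, and Maf1. They were found by symbol among the 37991 genes counted, and all 9 were among the 16683 genes that passed the filter on low counts and were tested. Polr3gl, the paralog of Polr3g, was counted too and is given beside it.

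Messenger RNA was sequenced from pre-B cells sorted from bone marrow by flow cytometry, all on the C57BL/6 background. The labels give high B220, low IgM and low IgD for the sort of all stages, but the study's methods give this gate for wild type and premalignant cells and a gate of B220+, IgM- and IgD- for malignant cells. Wild type mice were 4 to 6 weeks old and carried no transgene. Premalignant mice were of the same age and heterozygous for Eμ-Myc (EμMyc/+), a transgene in which the immunoglobulin heavy chain enhancer drives Myc in the B lineage. Malignant mice carried the same transgene and had developed spontaneous lymphoma at 10 to 20 weeks. By the study's methods the wild type and premalignant mice were female and malignant mice were of both sexes, so age, sex, gate and disease cannot be told apart in comparisons with malignant cells. There were 2 libraries for each stage, numbered replicate 1 and replicate 2, and 6 in all. Values below are for the messenger RNAs of the enzyme. The short RNAs that it makes were not analysed here.

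The replicate 1 libraries held 51065861 to 53453055 counts and those of replicate 2 held 30031100 to 34543633, so depth followed the replicate number and not the stage. Myc itself was at 33.7 and 41.4 CPM (counts scaled to a common library total) in wild type cells, at 1164 and 1155 CPM in premalignant cells and at 1731 and 1577 CPM in malignant cells. The sorted cells carried B lineage markers in every library, with a summed level of 6829 to 7651 CPM over 10 genes in wild type, 3415 to 3424 CPM in premalignant and 2970 to 3254 CPM in malignant cells, and 9 of the 10 were called lower in premalignant and in malignant cells than in wild type cells. Markers of other cell types were present at lower levels. All such lists were highest in wild type cells except 3 genes of mature B cells. Their summed level was 96.4 to 181 CPM in wild type, 181 to 233 CPM in premalignant and 30.8 to 78.9 CPM in malignant cells. Most of this sum came from Ms4a1, at 93.3 and 175 CPM in wild type and 180 and 232 CPM in premalignant cells. Ms4a1 was not called in premalignant vs. wild type cells, while Cr2 and Fcer2a were called lower (log2 fold change -1.29 and -3.43). The summed level of 6 myeloid genes was 424 to 885 CPM in wild type, 126 to 146 CPM in premalignant and 32.5 to 73.7 CPM in malignant cells, and all 6 were called lower in both comparisons with wild type. No marker of any list was at 0 in all libraries. The summed level of 8 genes of cycling cells was 3378 to 5066 CPM in wild type, 6814 to 7319 CPM in premalignant and 4510 to 5893 CPM in malignant cells. The part of cell makeup and of cycling in the results below was not tested, and in such bulk samples a change in RNA per cell cannot be told apart from a change in which cells were sorted.

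A gene was called changed when its Benjamini-Hochberg adjusted p over all tested genes was at most 0.1 and its log2 fold change was at least 0.5 in size, in edgeR's quasi-likelihood test on all 6 libraries. In premalignant vs. wild type cells, 4 of the 9 genes rose (Polr3g, Polr3e, Polr3d and Polr3k) and none was called lower. Over all tested genes, 19% were called higher and 20.3% lower in this comparison. In malignant vs. wild type cells, 5 of the 9 rose (Polr3g, Polr3d, Polr3e, Polr3a and Polr3c) and none was called lower, beside 24.9% of all genes called higher and 24.3% called lower. In malignant vs. premalignant cells none of the 9 was called by edgeR, where 6.18% of all genes were called in either direction. At an unadjusted p under 0.05 there were 3 of the 9, namely Polr3a, Polr3b and Polr3d, beside 19.9% of all genes. DESeq2 called 1 of the 9, Polr3d, beside 14.2% of the genes to which it gave an adjusted p.

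Both premalignant libraries were above both wild type libraries for 7 of the 9 genes, compared with 36.2% of all genes. Both malignant libraries were above both wild type libraries for 8 of the 9, compared with 35.3% of all genes, and above both premalignant libraries for 6 of the 9, compared with 25.8%. Maf1 alone of the 9 was lower in both transgenic stages than in wild type without overlap, as were 41.2% of all genes in premalignant and 36.4% in malignant vs. wild type cells. The median log2 fold change of the 9 genes was 0.47 in premalignant vs. wild type, 0.19 in malignant vs. premalignant and 0.59 in malignant vs. wild type cells. The medians of all tested genes were -0.08, 0.04 and -0.02 in the same order. Both comparisons with wild type use the same 2 wild type libraries and are not independent.

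**Figure D1:**
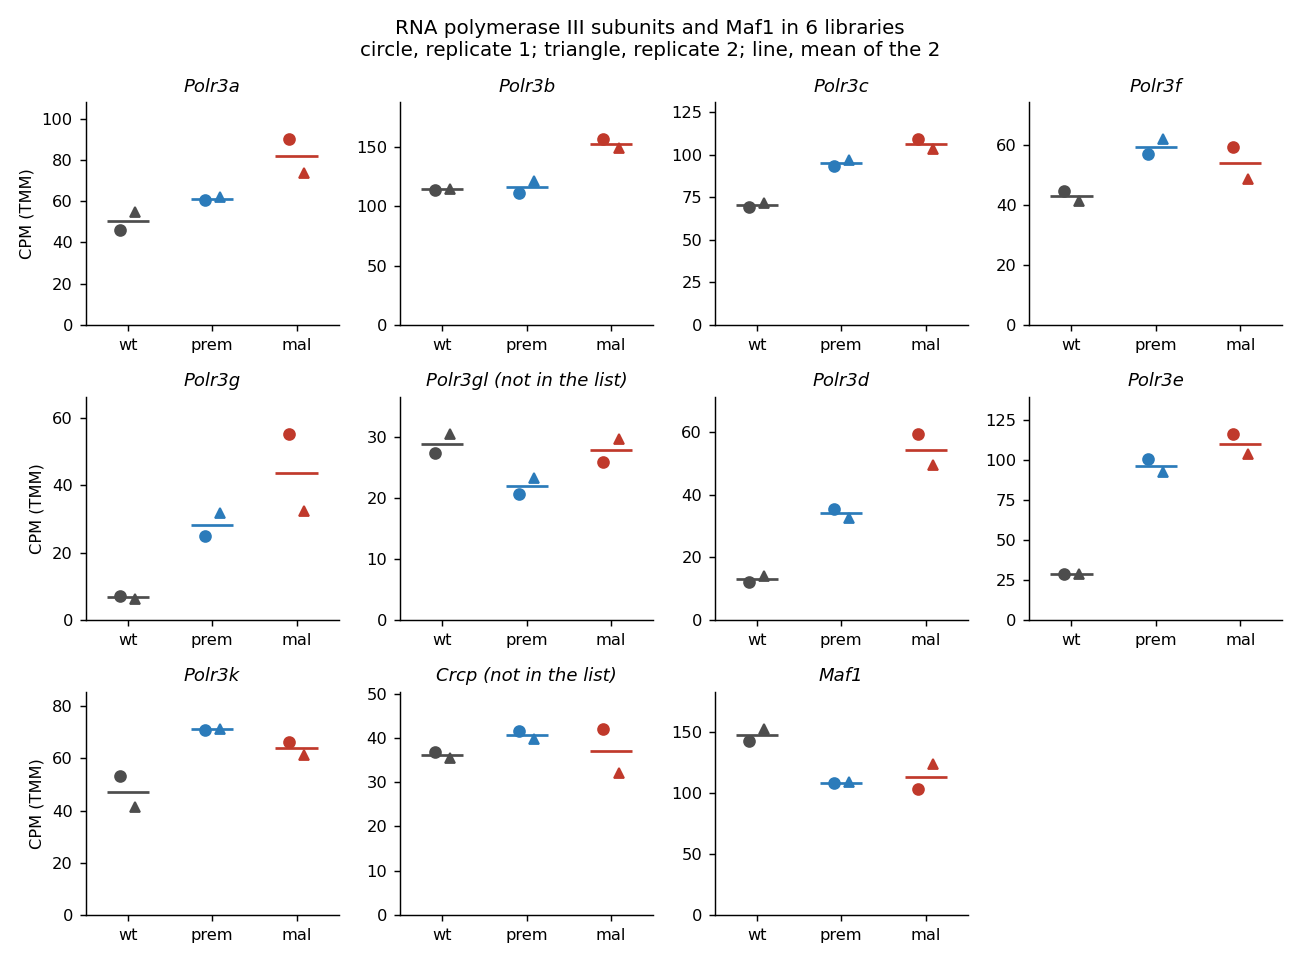
Level of the 8 listed subunit genes, Maf1, and the further subunits Polr3gl and Crcp, in CPM scaled by TMM (y axis, from 0), with the stages on the x axis (wt, prem and mal stand for the 3 stages); circles are replicate 1, triangles replicate 2 and lines the mean of the 2 libraries. Polr3g, Polr3d and Polr3e sit far below their transgenic levels in both wild type libraries, Polr3b overlaps between wild type and premalignant libraries, and Maf1 is highest in wild type.

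Polr3a and Polr3b, the largest subunits, form the active centre of the enzyme. Polr3a was at 46.0 and 54.6 CPM in wild type, 60.7 and 61.9 CPM in premalignant and 89.9 and 73.9 CPM in malignant cells. The 3 stages did not overlap. Polr3a rose in malignant vs. wild type cells with a log2 fold change of 0.70 ± 0.16 (SE; edgeR adjusted p = 0.0159), while its log2 fold change in premalignant vs. wild type cells was 0.28 ± 0.16 (edgeR adjusted p = 0.226) and in malignant vs. premalignant cells 0.42 ± 0.16 (edgeR adjusted p = 0.226). The malignant call fell below the minimum fold when libraries were scaled by total counts alone (log2 fold change 0.41).

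Polr3b was at 114.0 and 114.6 CPM in wild type, 111.4 and 121.4 CPM in premalignant and 156.4 and 149.0 CPM in malignant cells. Wild type and premalignant libraries overlapped, and both malignant libraries were above the other four. Its log2 fold change was 0.03 ± 0.12 (SE) in premalignant vs. wild type cells (edgeR adjusted p = 0.893). In malignant vs. wild type cells it was 0.42 ± 0.12 with an edgeR adjusted p of 0.0347, which passed the FDR and not the minimum fold. A stretch of 102 bp of its exons, 2.11% of them, lies opposite the non-coding gene Gm17249, whose reads cannot be told apart because the library kit did not keep the strand.

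Polr3c, Polr3f and either Polr3g or Polr3gl make a subcomplex that is needed for the start of transcription. Polr3c was at 69.3 and 71.6 CPM in wild type, 93.4 and 97.1 CPM in premalignant and 108.9 and 103.1 CPM in malignant cells, and the stages did not overlap. It rose in malignant vs. wild type cells with a log2 fold change of 0.59 ± 0.12 (SE; edgeR adjusted p = 0.0110). This call was lost for the minimum fold with upper-quartile normalization (0.42), with total counts alone (0.29) and with at least 10 counts required in every library (0.50 after rounding). In premalignant vs. wild type cells the log2 fold change of Polr3c was 0.43 ± 0.12 (edgeR adjusted p = 0.0402), below the minimum fold.

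Polr3f was at 44.7 and 41.1 CPM in wild type, 57.0 and 61.7 CPM in premalignant and 59.2 and 48.6 CPM in malignant cells. Both transgenic stages were above wild type without overlap, and they overlapped each other. No comparison of Polr3f passed both thresholds, with a log2 fold change of 0.47 ± 0.16 (SE) in premalignant vs. wild type (edgeR adjusted p = 0.0671) and of 0.33 ± 0.16 in malignant vs. wild type cells (edgeR adjusted p = 0.140).

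Polr3g (chr13:81812842-81850012 in NCBIM37, minus strand) had the largest log2 fold change of the 9 genes in both comparisons with wild type. It was at 7.27 and 6.31 CPM in wild type, 24.9 and 31.7 CPM in premalignant and 55.1 and 32.5 CPM in malignant cells, from 223 to 2636 counts in a library. The wild type libraries were far below the other four, and the malignant libraries were above the premalignant ones, though replicate 2 of the malignant cells was so by a small margin. The log2 fold change was 2.06 ± 0.30 (SE) in premalignant vs. wild type cells (edgeR adjusted p = 0.00567) and 2.69 ± 0.30 in malignant vs. wild type cells (edgeR adjusted p = 0.00155). Within single libraries of the same replicate number, it was 1.78 and 2.33 for premalignant and 2.92 and 2.36 for malignant cells. Both calls stood in each of the 13 other fits of the counts that were run.

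From premalignant to malignant cells, the log2 fold change of Polr3g was 0.63 ± 0.28 (SE; edgeR adjusted p = 0.287). It was 1.15 between the replicate 1 libraries and 0.03 between the replicate 2 libraries. The 2 malignant libraries differed by 0.76 on the log2 scale, the largest gap between libraries of a stage among the 9 genes. Without malignant replicate 2 the difference was called (log2 fold change 0.93), and without malignant replicate 1 it was 0.20.

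Polr3d and Polr3e pair with each other in the enzyme and take part in ending transcription and starting it again. Polr3d (chr14:70838555-70843278, minus strand) was at 12.1 and 14.1 CPM in wild type, 35.5 and 32.6 CPM in premalignant and 59.3 and 49.5 CPM in malignant cells. The 3 stages were clearly apart. Polr3d rose by a log2 fold change of 1.38 ± 0.17 (SE) in premalignant vs. wild type (edgeR adjusted p = 0.00402) and of 2.05 ± 0.18 in malignant vs. wild type cells (edgeR adjusted p = 0.000854). In malignant vs. premalignant cells its log2 fold change was 0.68 ± 0.17, with 0.74 between the replicate 1 libraries and 0.60 between the replicate 2 libraries. The edgeR adjusted p was 0.105, just past the threshold, and Polr3d was called higher by DESeq2, with no filter on low counts and without either malignant library.

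Polr3e (chr7:128061258-128090946, plus strand) was at 28.8 and 28.6 CPM in wild type, 100.5 and 92.3 CPM in premalignant and 116 and 104 CPM in malignant cells. Its 2 wild type libraries were nearly equal, and all 4 transgenic libraries were far above them. The log2 fold change of Polr3e was 1.75 ± 0.14 (SE) in premalignant (edgeR adjusted p = 0.00179) and 1.94 ± 0.14 in malignant vs. wild type cells (edgeR adjusted p = 0.000628). The further difference between malignant and premalignant cells was 0.19 ± 0.13 on the log2 scale (edgeR adjusted p = 0.498). The calls of Polr3d and Polr3e against wild type stood in each of the 13 other fits.

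Polr3k, a small subunit with a part in RNA cleavage and in ending transcription, was at 53.1 and 41.4 CPM in wild type, 71.1 and 71.1 CPM in premalignant and 66.2 and 61.5 CPM in malignant cells. It was highest in premalignant cells, whose libraries were above those of both other stages. It rose in premalignant vs. wild type cells with a log2 fold change of 0.59 ± 0.16 (SE; edgeR adjusted p = 0.0387). The wild type libraries differed by 0.36 on the log2 scale, and the call was lost without wild type replicate 2 (log2 fold change 0.42), without either premalignant library (0.60 each) and with total counts alone (0.38). In malignant vs. wild type cells the log2 fold change of Polr3k was 0.43 ± 0.16 (edgeR adjusted p = 0.0742).

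Maf1, the repressor (chr15:76181724-76184810, plus strand), was at 142 and 152 CPM in wild type, 108 and 109 CPM in premalignant and 103 and 124 CPM in malignant cells. Both transgenic stages were below wild type without overlap, opposite to the subunits that rose. The log2 fold change was -0.44 ± 0.14 (SE) in premalignant (edgeR adjusted p = 0.0565) and -0.38 ± 0.14 in malignant vs. wild type cells (edgeR adjusted p = 0.0709), so that both passed the FDR and neither reached the minimum fold. Maf1 was called lower in premalignant cells with upper-quartile normalization, with total counts alone and with at least 10 counts in every library, and in malignant cells with the first pair of these. The first 2 scalings also move the median of all genes down, by 0.08 and 0.21 in premalignant vs. wild type and by 0.17 and 0.29 in malignant vs. wild type on the log2 scale, and the log2 fold changes given here are those of the TMM scaling.

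**Figure D2:**
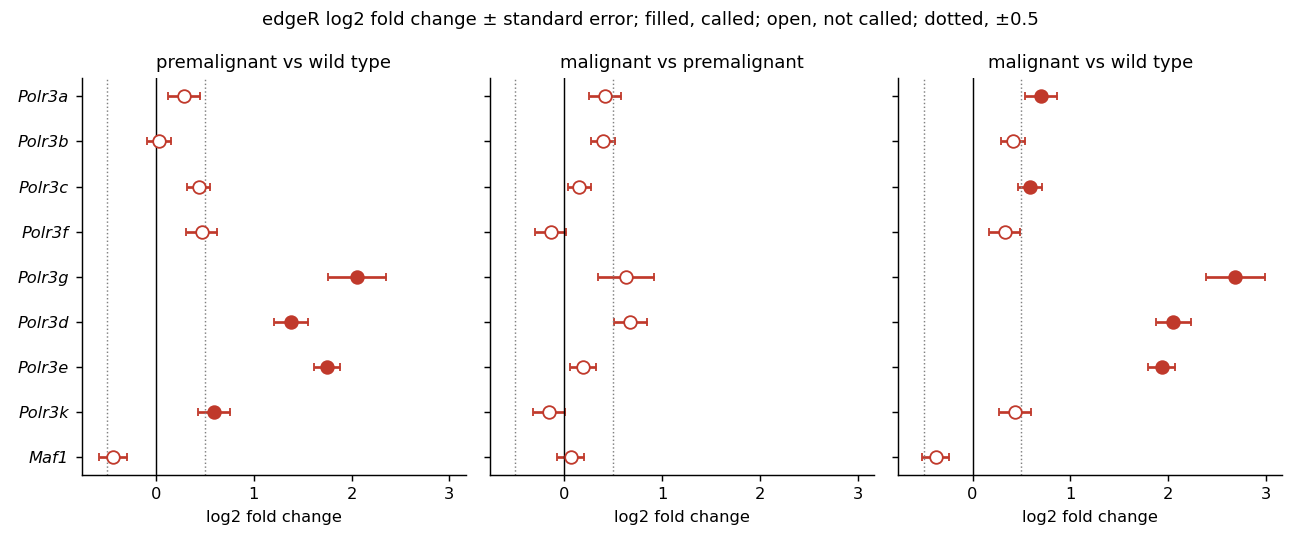
Log2 fold change (x axis) of the 9 genes in the 3 comparisons, fitted by edgeR, with bars of 1 standard error; filled points passed both thresholds, open points did not, and dotted lines mark the minimum fold of 0.5 in either direction. Polr3g, Polr3d and Polr3e stand apart from the others against wild type, between 1.38 and 2.69, and no point is filled in malignant vs. premalignant cells.

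Polr3g and Polr3gl are alternative subunits, of which an enzyme holds either one. Polr3g is known for its high expression in pluripotent and tumour cells, and Polr3gl is expressed broadly. Their longest annotated coding sequences have 672 and 657 bases and are identical at 60.9% of the aligned positions. No stretch of 50 bases, the read length, was found in protein-coding transcripts of both genes, so reads within those transcripts can be assigned to one or the other. Of the 50-base stretches of Polr3gl, 3.71% were also present in transcripts of other genes.

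Polr3gl did not follow Polr3g. It was at 27.4 and 30.4 CPM in wild type, 20.6 and 23.3 CPM in premalignant and 25.9 and 29.6 CPM in malignant cells. The premalignant libraries were below the other four, and malignant and wild type libraries overlapped. The log2 fold change of Polr3gl was -0.40 ± 0.17 (SE) in premalignant (edgeR adjusted p = 0.124) and -0.06 ± 0.17 in malignant vs. wild type cells (edgeR adjusted p = 0.815), and neither was called.

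Levels of different genes were compared per length, as RPKM, which is CPM divided by the length of the exons in kilobases. The ratio of Polr3g to Polr3gl was 0.108 and 0.0843 in the wild type libraries, 0.490 and 0.552 in the premalignant libraries and 0.864 and 0.445 in the malignant libraries. All 4 transgenic libraries were above both wild type libraries, and the malignant libraries lay on either side of the premalignant ones. The mean ratio was 0.0960 ± 0.0166 (SD, n = 2) in wild type, 0.521 ± 0.0437 (SD, n = 2) in premalignant and 0.654 ± 0.297 (SD, n = 2) in malignant cells. Compared with wild type, the geometric mean of the ratio was 5.46-fold higher in premalignant cells and 6.50-fold higher in malignant cells, each with an exact two-sided permutation p of 0.333, the smallest that 2 libraries against 2 allow. Between malignant and premalignant cells it differed 1.19-fold, with an exact permutation p of 1. A scaling factor common to both genes of a library cancels in this ratio.

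Per length of all exons, Polr3gl stayed the more abundant of the pair in each library. With the length of the longest transcript the ratio was 0.995 in malignant replicate 1, so that the pair was nearly equal there. Without division by length, Polr3g had more counts than Polr3gl in all transgenic libraries. These ratios of counts were 1.21 and 1.36 in premalignant and 2.13 and 1.10 in malignant cells. By RPKM over all exons, Polr3g made up 9.73% and 7.78% of the sum of both genes in wild type, 32.9% and 35.6% in premalignant and 46.3% and 30.8% in malignant cells. The sum of both was 19.8 ± 1.15 RPKM (SD, n = 2) in wild type, 20.9 ± 2.43 RPKM in premalignant and 28.5 ± 2.40 RPKM in malignant cells. Between wild type and premalignant cells the share of Polr3g thus differed at a sum whose libraries overlapped.

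**Figure D3:**
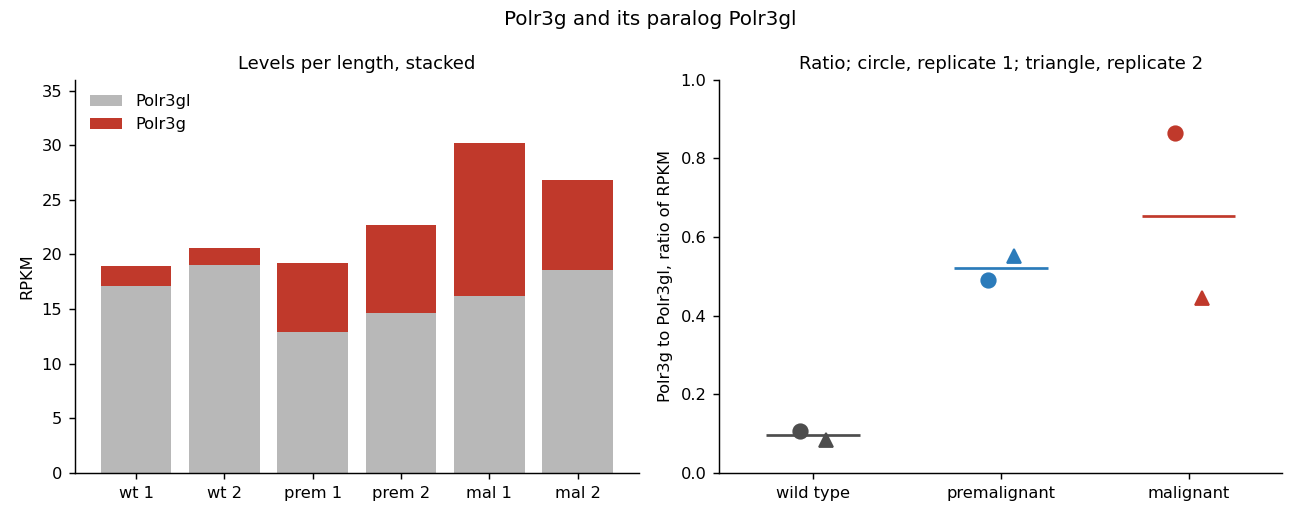
Left, RPKM of Polr3gl (grey) and Polr3g (red) stacked for each of the 6 libraries, from 0; right, ratio of the RPKM of Polr3g to that of Polr3gl for each library, with the stage mean as a line. The ratio lies at 0.0843 and 0.108 in wild type libraries and between 0.445 and 0.864 in transgenic libraries, and the 2 malignant libraries are far apart.

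Crcp, a subunit of the stalk of the enzyme, was at 36.8 and 35.3 CPM in wild type, 41.5 and 39.7 CPM in premalignant and 41.9 and 32.1 CPM in malignant cells. It was not called in any comparison, with log2 fold changes of 0.17 ± 0.17 (SE) in premalignant (edgeR adjusted p = 0.488) and 0.04 ± 0.17 in malignant vs. wild type cells (edgeR adjusted p = 0.881).

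Ordered by RPKM, the subunits were spread most widely in wild type cells. Maf1 was above the 10 subunits measured here (the 8 listed, Polr3gl and Crcp) in each stage, at 61.0 ± 2.81 RPKM (SD, n = 2) in wild type, 44.9 ± 0.266 RPKM in premalignant and 46.9 ± 6.03 RPKM in malignant cells. In wild type cells the order of the subunits was Polr3b (23.7 RPKM), Crcp (22.8), Polr3c (20.8), Polr3gl (18.1), Polr3k (15.1), Polr3a (10.7), Polr3e (6.77), Polr3d (6.40), Polr3f (5.57) and Polr3g (1.72). Of these neighbours, the libraries of Polr3e and Polr3d overlapped and the others did not. The order depends on the length used, and with the longest transcript it began with Polr3c (29.3 RPKM), Crcp (24.2) and Polr3b (23.7). Polr3g was thus the lowest, and Polr3d and Polr3e, just above Polr3f, were with Polr3g those of the 10 called higher in both transgenic stages. Both statements rest on the same wild type libraries.

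In premalignant cells the order was Polr3c (28.1 RPKM), Crcp (25.7), Polr3b (24.1), Polr3e (22.8), Polr3k (22.8), Polr3d (16.6), Polr3gl (13.7), Polr3a (13.1), Polr3f (7.70) and Polr3g (7.19). The libraries of Polr3b, Polr3e and Polr3k overlapped from neighbour to neighbour, as did those of Polr3gl and Polr3a and those of Polr3f and Polr3g. In malignant cells it was Polr3b (31.6 RPKM), Polr3c (31.3), Polr3d (26.5), Polr3e (25.9), Crcp (23.4), Polr3k (20.4), Polr3a (17.5), Polr3gl (17.4), Polr3g (11.1) and Polr3f (6.99). Here Polr3b and Polr3c overlapped, as did from neighbour to neighbour Polr3d, Polr3e, Crcp and Polr3k, and also Polr3a and Polr3gl. With the length of the longest transcript in place of all exons, Polr3f moved from the 10th to the 8th place among the 11 genes in wild type cells, Maf1 included, and Polr3g stayed last in wild type and premalignant cells. By this length the malignant means were 14.3 RPKM for Polr3g and 12.2 RPKM for Polr3f. In malignant replicate 2, however, Polr3g was the lowest subunit, at 10.6 RPKM.

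**Figure D4:**
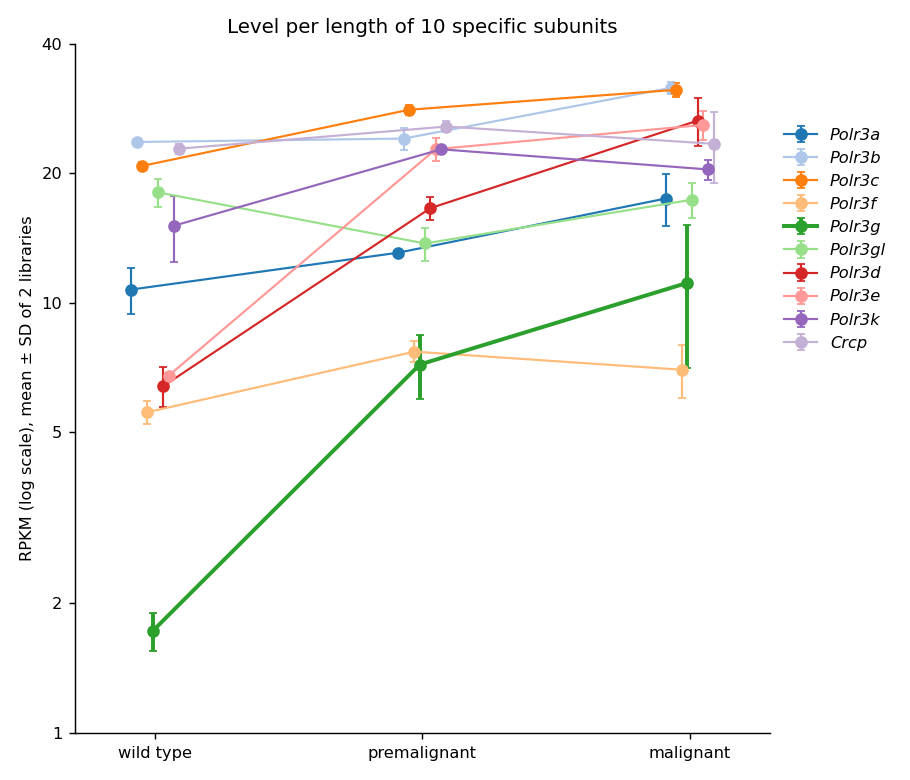
Mean RPKM of 10 subunits in each stage on a log scale, with bars of 1 SD over 2 libraries. The subunits reach from 1.72 to 23.7 RPKM in wild type and from 6.99 to 31.6 RPKM in malignant cells, and the line of Polr3g starts below all the others in wild type and ends above that of Polr3f in malignant cells.

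The promoters of some of these genes hold the E-box CACGTG, the sequence that Myc with its partner Max is known to bind. Promoter windows of RefSeq (GRCm38.p6, a later build than that of the counts) reach from 250 bases before to 50 bases after the start of transcription, and were given for 6 of the 9 genes. Those of Polr3a, Polr3d and Maf1 were not used here. The letters CACGTG, which read the same on both strands, were present in the windows of 2 of the 6, Polr3c and Polr3e, in 4 of the 35 other genes of the pathway with a window (11.4%) and in 7.15% of all 32851 windows. The last share counts windows and the others count genes, some of which have more than 1 window. The share of G and C was 70.7% in the window of Polr3c and 66.7% in that of Polr3e. It was 46% (Polr3b) to 69.7% (Polr3g) in the other listed genes with a window, and its median over all windows was 52.7%. The stretches around the motif (in capitals) are shown for Polr3e, which rose strongly, for Polr3c, which rose less, and for Polr3gl, which was not called. For comparison, the last 30 bases before the start of Polr3g are shown, whose window holds no CACGTG.
Polr3e (chr7:120917760-120917789, plus strand): gcgagggccggccccgctcccccCACGTGt
Polr3c (chr3:96727660-96727689, minus strand): ggcccgcaagggtCACGTGagtccgcccgg
Polr3gl (chr3:96594358-96594387, minus strand): ttctggctccgcCACGTGtctggatgagct
Polr3g (chr13:81711014-81711043, minus strand): tcttccgggggtgtggcctcgcgggagtgg
The motif starts at base 6 of the transcript of Polr3e, 237 bases before the start of Polr3c and 194 bases before that of Polr3gl. The windows do not cover the rest of these genes, and a relation of the motif to the changes in level was not tested. These letters are a description of the windows and no binding was measured here.

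The rest of the machinery of RNA polymerase III was followed in 43 further genes. Of these, 24 were called higher and 1 lower in premalignant vs. wild type cells, beside 19% and 20.3% of all tested genes. In malignant vs. wild type cells 26 were called higher and 2 lower, beside 24.9% and 24.3%. In malignant vs. premalignant cells 2 were called higher and none lower, beside 6.18% called in either direction. The median log2 fold changes of the 43 genes were 0.66, 0.70 and -0.03 in the order just given.

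The shared subunits were called higher in both comparisons with wild type, where 19% (premalignant) and 24.9% (malignant) of all genes were called higher. None of these subunits was called in malignant vs. premalignant cells. Polr1c and Polr1d, which RNA polymerases I and III share, were both called higher in each comparison with wild type, with log2 fold changes of 1.28 ± 0.15 (SE) and 0.94 ± 0.17 in premalignant vs. wild type cells. The 5 subunits common to all 3 polymerases, Polr2e, Polr2f, Polr2h, Polr2k and Polr2l, were also called higher in both, with log2 fold changes between 0.66 and 1.73 in premalignant cells and between 0.69 and 2.28 in malignant cells. For Polr2e the premalignant call had an edgeR adjusted p of 0.0902 and stood in 6 of the 13 other fits, and those of Polr2k and Polr2l stood in 9 and 10. The malignant log2 fold change of Polr2e was 1.01 ± 0.25 and moved to 0.60 without malignant replicate 2.

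TFIIIB and TFIIIC are factors that place the enzyme. In premalignant vs. wild type cells 1 of 4 TFIIIB genes and 1 of 6 TFIIIC genes were called higher, beside 19% of all genes. In malignant vs. wild type cells 1 of 4 and 2 of 6 were called higher, beside 24.9%. TFIIIB recruits the enzyme at its promoters, and its gene Bdp1 was called higher in both comparisons. Log2 fold changes were 0.55 ± 0.12 (SE) in premalignant and 0.50 ± 0.12 in malignant vs. wild type cells. Each call stood in 7 of the 13 other fits. Brf1, Brf2 and Tbp were not called, with log2 fold changes of -0.23, 0.28 and 0.30 in premalignant and of 0.02, 0.22 and 0.11 in malignant vs. wild type cells. In TFIIIC, which binds inside tRNA genes, Gtf3c4 rose in both comparisons with wild type (1.02 ± 0.18 and 0.95 ± 0.18) and Gtf3c3 in malignant vs. wild type cells (0.79 ± 0.24). This call of Gtf3c3 stood in 10 of the 13 other fits, and its log2 fold change was 0.49 without malignant replicate 1 and 1.07 without malignant replicate 2. The other 4 of its 6 subunits were not called in any comparison. Gtf3a, which is TFIIIA and is needed for 5S rRNA, had log2 fold changes of 1.43 ± 0.15 and 1.58 ± 0.15, but 59.1% of its exon bases lie opposite Mtif3, and reads of the 2 genes cannot be told apart there. Other genes followed here also share exon bases with another gene, among them Pou2f1 (22.5%), Ssb (19.9%), Tbp (19.3%), Trnt1 (10.3%) and Polr3gl (3.57%). For Polr2b, a subunit of RNA polymerase II, this share was 81.6%, with a gene on the same strand.

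Among 7 factors of the promoters that lie wholly before the gene, such as that of U6 RNA, changes went both ways. Snapc4 rose in premalignant and malignant vs. wild type cells (log2 fold change 0.84 ± 0.20 and 0.78 ± 0.20, SE), and Snapc1 in malignant vs. wild type cells (0.63 ± 0.21), a call that stood in 5 of the 13 other fits and at 0.41 was lost without malignant replicate 2. Snapc3 fell in both, by 0.91 and 1.05 on the log2 scale. Snapc5 fell by 1.04 in malignant vs. wild type cells, a call that stood in 8 of the 13 other fits. It was at 13.3 and 5.55 CPM in the malignant libraries, and its log2 fold change was -1.80 without malignant replicate 1 and -0.52 without malignant replicate 2. Snapc2, Pou2f1 and Zfp143 were not called.

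In premalignant and malignant vs. wild type cells, 19% and 24.9% of all genes were called higher. Genes that handle the transcripts of RNA polymerase III were mostly called higher, 13 of 16 in each of these comparisons. They included Ssb, which binds the ends of new transcripts, at 1.01 ± 0.17 (SE) and 0.87 ± 0.17 on the log2 scale. Pop1 and Rpp40, subunits of RNase P, which trims the 5′ end of tRNAs, had log2 fold changes of 2.14 ± 0.14 and 1.96 ± 0.20 in premalignant and 2.49 ± 0.14 and 2.21 ± 0.21 in malignant vs. wild type cells. Elac2, which trims the 3′ end, had 1.28 ± 0.21 and 1.49 ± 0.21. Rpp25 had 1 count in each wild type library, 77 and 64 counts in the premalignant and 119 and 14 counts in the malignant libraries, so the size of its fitted change depends on the prior count. Mepce, Hexim1 and Rpp21 were not called. From premalignant to malignant cells, Trnt1, which adds the CCA end to tRNAs, rose by 0.77 ± 0.17 on the log2 scale (edgeR adjusted p = 0.0740), and Rpp14 of RNase P by 0.81 ± 0.16 (edgeR adjusted p = 0.0595), calls that stood in 11 and 8 of the 13 other fits.

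Beside these, the subunits that RNA polymerase I or II does not share with the other enzymes were counted in the same fit. Of 6 such subunits of RNA polymerase I, 5 were called higher in premalignant and 5 in malignant vs. wild type cells, with median log2 fold changes of 1.62 and 1.84. Of 7 such subunits of RNA polymerase II, 5 and 4 were called higher, with medians of 0.54 and 0.51. The medians of the 8 listed subunits of RNA polymerase III, without Maf1, were 0.53 and 0.65, with 4 and 5 called. Over all tested genes, 19% were called higher in premalignant and 24.9% in malignant vs. wild type cells. The lists were not tested against each other.

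**Figure D5:**
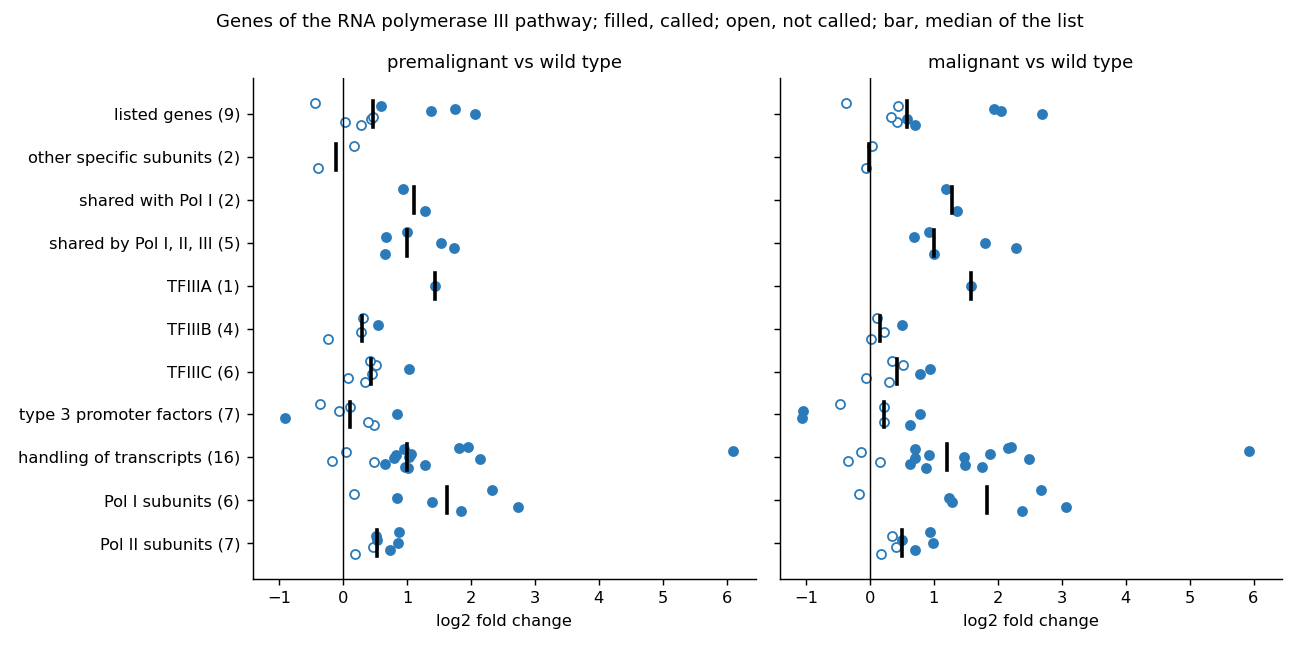
Log2 fold change (x axis) of each gene of the RNA polymerase III machinery by list, with the number of genes in brackets, and of the subunits of RNA polymerases I and II, in premalignant and malignant vs. wild type cells; filled points were called, open points were not, and black bars are list medians. All 7 shared subunits are filled on the right side of 0 in both panels, while most points of TFIIIB and TFIIIC are open; type 3 promoter factors are those of promoters wholly before the gene.

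The genes whose pattern over the 6 libraries was most like that of Polr3g were sought among 12648 genes with a symbol and a mean of at least 1 CPM, by the root mean square difference of centred log2 CPM. They were Ncl (0.0992), Rrp15 (0.09998), Wdr12 (0.129), Mki67ip (0.135) and Xrcc5 (0.144). Like Polr3g, all of them were higher in malignant replicate 1 than in malignant replicate 2, for example Rrp15 at 118 and 64.8 CPM and Xrcc5 at 99.6 and 63.0 CPM. The gap between the malignant libraries is thus part of this likeness. Ncl is nucleolin, an abundant protein of the nucleolus, and was at 695 and 664 CPM in wild type, 2565 and 2881 CPM in premalignant and 4535 and 3032 CPM in malignant cells. Among the 9 other subunits measured here, Polr3e was nearest to Polr3g (0.346, rank 187), followed by Polr3d (0.361, rank 221), and Polr3gl was at rank 7399.

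For Maf1 the nearest genes were 4932438A13Rik (0.0256), Vav1 (0.0484), Akna (0.0499), Dlg1 (0.0524) and Prex1 (0.0555). All were lower in both transgenic stages than in wild type, which follows from their choice by likeness to Maf1. Vav1, a signalling protein of blood cells, was at 207 and 234 CPM in wild type, 170 and 175 CPM in premalignant and 154 and 195 CPM in malignant cells. Polr3gl was the nearest of the 10 subunits to Maf1, at a difference of 0.152 and rank 424, and Polr3g was at rank 11977. These differences describe 6 libraries of 3 stages, which share depth by replicate number, and were given no test.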

How the data were processed

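RNA of sorted pre-B cells was sequenced in 6 libraries, 2 for each of 3 stages, which were assigned from the labels. The authors made polyA libraries with an unstranded kit, aligned 50-bp reads with TopHat, used HTSeq to count reads on Ensembl genes, and deposited raw counts without normalization. The submitters' processing notes also name CASAVA 1.8.2, Bowtie, DESeq and build mm9, and the options of HTSeq are not given in the sources used here. The authors' tables from DEseq (means, fold changes and p-values for wild type and premalignant vs. malignant cells) were not used.

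Symbols, coordinates and exon lengths were taken from GENCODE vM1 on NCBIM37 (mm9), which named 37205 of 37991 identifiers. Genes that passed edgeR's default filter (16683) were tested with edgeR 4.0.16 (R 4.3.3), using TMM normalization and quasi-likelihood F tests with all 6 libraries in 1 fit. Standard errors were derived from each log2 fold change and its F statistic. The study's thresholds defined a call (Benjamini-Hochberg FDR no higher than 0.1, log2 fold change of 0.5 or more in either direction). CPM used TMM-scaled totals and RPKM divided CPM by the kilobases of all annotated exons. The ratio of Polr3g to Polr3gl was tested by exact permutation of libraries. Likeness to Polr3g and Maf1 used log2(CPM + 0.5). Alternatives were DESeq2 1.42.0, other scalings and filters, the replicate number as a block, only the stages compared, other thresholds and leaving out each library. Fits were tested on simulated data.

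The members and lists were chosen with earlier results of these data known. All 9 members, Polr3gl and the pathway genes were named by list, and for likeness the 5 nearest genes to each of Polr3g and Maf1. Of the pathway lists, 1 gene is not reported here. The study's methods call the 2 libraries of a stage biological replicates. Libraries of a stage differed far beyond sampling noise. TMM takes most genes as unchanged, so that a change in RNA content per cell is not visible. Precision is limited by the depth, of which 3 counts are worth 0.0525 to 0.108 CPM.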

Additional observations from a re-analysis of the deposited data

How the results depend on the processing

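The calls of Polr3g, Polr3d and Polr3e against wild type cells stood in each of the 13 other fits, and no value of the pathway genes that was called changed sign. Of 2337 values of single genes under an alternative, 2188 kept their side of the thresholds, 94 lost a call, 55 gained one, and 61 changed sign without a call in either fit. With no minimum fold change, 7 of the 9 genes were called in premalignant and 8 in malignant vs. wild type cells, beside 42% and 52.3% of all genes. In malignant vs. premalignant cells, DESeq2 called 1 (Polr3d), beside 14.2% of the genes to which it gave an adjusted p. The fit with no filter on low counts also called Polr3d alone. The share of all genes called in that fit is not given here. When each library was left out in turn, the log2 fold change in this comparison was 0.54 to 0.77 for Polr3d. It was 0.27 to 0.52 for Polr3a and 0.20 to 0.93 for Polr3g. Where leaving out a library left a stage with 1 library, that library was assumed to vary like those of the other stages. The median log2 fold change of the 9 genes fell to 0.26 with total counts alone in premalignant vs. wild type cells, to 0.11 with upper-quartile normalization and 0.10 with total counts alone in malignant vs. premalignant cells, and to 0.42 and 0.29 with these in malignant vs. wild type cells. These scalings shift the median of all genes down as well. Leaving out each library gave medians of 0.42 to 0.54, 0.18 to 0.25 and 0.56 to 0.65 in the 3 comparisons in the same order. The ratio of Polr3g to Polr3gl was 0.237, 1.28 and 1.61 in wild type, premalignant and malignant cells when counts were not divided by length. With the length of the longest transcript it was 0.111, 0.600 and 0.753 in the same order. Single libraries gave 0.0843 to 0.108, 0.490 to 0.552 and 0.445 to 0.864 with the length of all exons. Over all genes, the calls in premalignant vs. wild type cells were 3169 higher and 3394 lower with TMM and 2247 higher and 4438 lower with total counts, and those in malignant vs. wild type cells were 4153 higher and 4059 lower with TMM, 3456 higher and 4746 lower with upper-quartile normalization and 2957 higher and 5367 lower with total counts. With the replicate number as a block, 4, 0 and 5 of the 9 genes were called in the 3 comparisons, as without it, and the medians were 0.47, 0.19 and 0.59. The share of all genes called with the block is not given here. Deviations from the stage means correlated between libraries of the same number at 0.509, 0.257 and 0.186 over 16683 genes, and the labels do not say that a number marks a shared batch or animal.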

Other observations

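The levels of the 10 subunits measured here lay closer together in the transgenic libraries than in the wild type libraries, a measure that was chosen after the values were seen and was given no test. The highest subunit was 12.8 and 14.8 times the lowest per length in the wild type libraries, 4.36 and 3.58 times in the premalignant libraries and 4.22 and 4.90 times in the malignant libraries. The coefficient of variation over the 10 subunits was 61.1% and 60.5% in wild type, 43.0% and 40.3% in premalignant and 36.7% and 41.4% in malignant libraries. With the length of the longest transcript it was 60.9% and 61.4%, 44.3% and 42.5%, and 36.3% and 42.7%. Polr3g was the lowest subunit in both wild type libraries with either length.

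Polr3gl and Polr3c lie on the same strand of chromosome 3 in NCBIM37, 117308 bp apart. Polr3c rose in malignant vs. wild type cells and was above wild type in all 4 transgenic libraries, while Polr3gl was below it in both premalignant libraries.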
